A study of Homo sapiens with 6 samples.

Results

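Immediate early genes and the response genes of the MAP kinase pathway were followed in 7860 cells (786-O, a clear cell renal carcinoma line) by RNA-seq and by Ribo-seq, the sequencing of mRNA fragments that ribosomes protect from nuclease. The 39 genes were taken by symbol from a list of transcription factors, pathway inhibitors, mRNA decay proteins, secreted proteins and effectors, and all 39 were found among the 19669 genes kept from the deposited table. Cells carried 1 of 3 labels, MT, WT or EV (empty vector), with 1 RNA-seq and 1 Ribo-seq library each. The series title gives MT as PHYHD1△107-130, a deletion form, and WT as PHYHD1-WT, whereas the sample labels call MT the overexpressing cells and leave WT as untreated. PHYHD1, an iron- and 2-oxoglutarate-dependent dioxygenase gene, stood at 109.5 FPKM in MT and 118 FPKM in WT, against 0.092 FPKM in EV. Its footprints stood at 905 TPM in MT and 222 TPM in WT and were listed at 0 in EV, so the libraries labelled WT do not have the low PHYHD1 level of EV cells. The library names used below are these labels. How the vectors were delivered, and whether the cells were clones or pools, is not stated in the sources used here. Growth conditions, and any serum or growth factor given before harvest, are not stated there either. Cycloheximide was added to the medium before footprints were made, at 100 µg/ml.

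Immediate early genes are transcribed within minutes of a growth factor, serum or stress signal, without new protein synthesis, because the factors that switch them on are already in the cell. In the best known route, RAS, RAF, MEK and ERK relay the signal to ETS-type partners of serum response factor (SRF), which sits at a promoter element called the CArG box. Products of these genes include the FOS and JUN subunits of the AP-1 transcription factor. Others feed back on the pathway, such as the DUSP phosphatases that inactivate MAP kinases and the Sprouty proteins that dampen receptor signalling. Many of the mRNAs carry AU-rich elements and are short-lived, and ZFP36 proteins bind such elements and bring about decay.

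Every label has a single library in each assay, so differences are between libraries, carry no SD or p-value and were not checked in replicates. Values are per transcript length and library as deposited (FPKM for mRNA, TPM for footprints), and a difference is in log2(value + 1), which understates changes of low genes. A gene is called higher or lower when that difference reaches 1 (the 2-fold rule, which weighs size alone), among genes at 1 unit or more in at least 1 of the libraries compared. Genes above 0 in only 1 library had medians of 0.038 to 0.046 FPKM and 0.118 to 0.148 TPM, so values under 1 unit rest on few reads. From the spacing of low values, 1 read was worth 1.27 times as much in the WT footprint library as in EV, and 0.943 times as much in MT, so WT has the coarsest footprint values. Of 10 markers of renal carcinoma lines 8 or 9 reached 1 unit in each library, with PAX8 mRNA at 75.9 FPKM or more, while CA9 was at or near 0 and NDUFA4L2 was under 1 FPKM. The 5 leukocyte markers summed to 0.18 units or less and the 5 fibroblast markers to 3.49 units or less in each library, and the 4 endothelial markers were listed at 0 in all 6.

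The mRNA set was uneven, with 16 members at 10 FPKM or more in at least 1 library and 10 members under 1 FPKM in all 3. CCN1, a secreted matrix-associated protein also known as CYR61, had the most mRNA of the 39. It stood at 92.3 FPKM in MT, 116 FPKM in WT and 108 FPKM in EV. ZFP36L1, an mRNA decay protein, followed at 81.6 FPKM in MT, 84.3 FPKM in WT and 72.7 FPKM in EV. MCL1, a short-lived inhibitor of apoptosis, stood at 69.0 FPKM in MT, 69.9 FPKM in WT and 66.0 FPKM in EV. The order of CCN1, ZFP36L1 and MCL1 was the same in each of the 3 libraries. Below 1 FPKM in all 3 libraries were FOS, FOSB, MAFF, EGR2, EGR3, NR4A3, DUSP2, DUSP4, SPRY4 and ARC. Of these EGR3, DUSP2 and ARC, an activity-regulated gene of neurons, were listed at 0 in all 6 libraries. In bulk RNA, fewer expressing cells and less RNA per cell cannot be told apart.

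**Figure D1:**
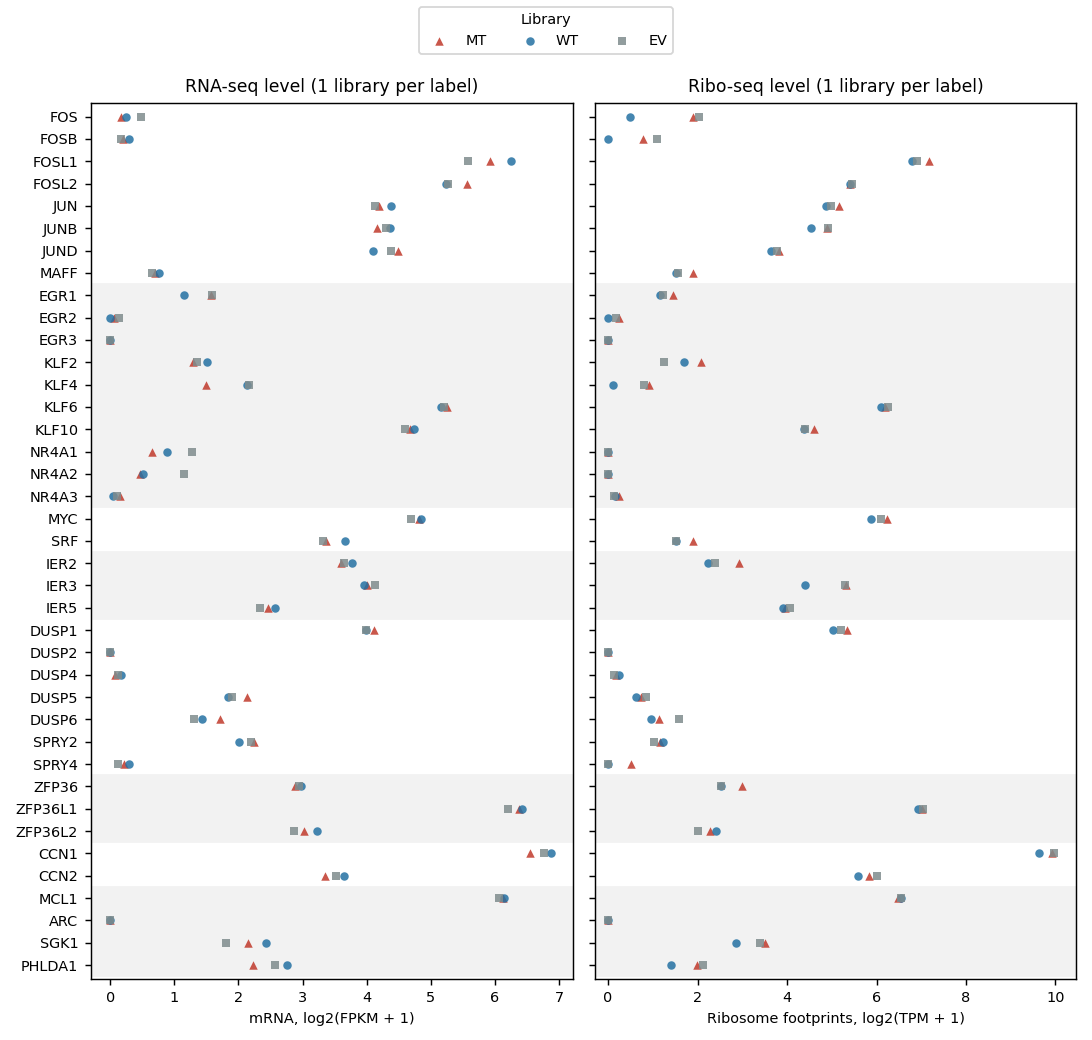
Level of each of the 39 members in the RNA-seq libraries (left, log2(FPKM + 1)) and the Ribo-seq libraries (right, log2(TPM + 1)), with 1 point per library (MT triangle, WT circle, EV square) and shading that separates the role groups. Points of most rows lie close together, with FOSL1 mRNA (59.6 FPKM in MT, 75.4 FPKM in WT, 47.1 FPKM in EV) and FOS and IER3 footprints spread farther apart.

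Among the AP-1 subunits, the mRNA of FOSL1 and FOSL2 was the most abundant and that of FOS itself was under 1 FPKM in all 3 libraries. FOSL1, which encodes FRA-1, a FOS relative that lacks the strong activation domain of FOS, stood at 59.6 FPKM in MT, 75.4 FPKM in WT and 47.1 FPKM in EV. Its log2 difference was 0.67 in WT over EV, 0.33 in MT over EV and -0.34 in MT over WT. The first 2 lay above the range that holds the middle 95% of genes at 10 to 100 FPKM, -0.38 to 0.37 for WT over EV and -0.35 to 0.31 for MT over EV. No difference of FOSL1 reached the 2-fold rule. FOSL2, the FRA-2 gene, stood at 46.3 FPKM in MT, 36.6 FPKM in WT and 37.7 FPKM in EV. JUND, a JUN family member that is expressed in many resting cells, stood at 21.5 FPKM in MT, 16.2 FPKM in WT and 19.9 FPKM in EV, and its difference of 0.39 in MT over WT was just above the middle 95% of genes of its level (-0.39 to 0.37). MT thus had the most FOSL2 and JUND mRNA and WT the most FOSL1 mRNA. JUN stood at 17.3 FPKM in MT, 19.8 FPKM in WT and 16.4 FPKM in EV, and JUNB at 17.0 FPKM in MT, 19.6 FPKM in WT and 18.7 FPKM in EV. MAFF, a small MAF protein that pairs with other basic leucine zipper factors, was between 0.574 and 0.7 FPKM.

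FOS and FOSB were the only members whose footprints passed the 2-fold rule in WT over EV, both of them lower in WT. FOS stood at 2.75 TPM in MT, 0.405 TPM in WT and 3.11 TPM in EV. Its log2 difference was -1.55 in WT over EV, 1.42 in MT over WT and -0.13 in MT over EV. The WT library thus held the low value, with MT and EV near each other. FOSB, a close relative of FOS, stood at 0.721 TPM in MT, was listed at 0 in WT and stood at 1.15 TPM in EV, a difference of -1.10 in WT over EV. Both genes entered that comparison through EV alone, so they could only differ in this direction. These were 2 of 28 measured members, in a comparison where the rule called 3.36% of all 10700 genes, 1.62% of all genes as lower. In MT over WT FOS, measured there through MT alone, was the 1 member of 27 past the rule, which called 3.19% of genes. In MT over EV the rule called 2.83% of genes and 0 of 28 members. The mRNA of FOS was 0.123 FPKM in MT, 0.183 FPKM in WT and 0.392 FPKM in EV, and that of FOSB 0.144 FPKM in MT, 0.22 FPKM in WT and 0.126 FPKM in EV. At these levels the mRNA values rest on few reads and no mRNA difference is given for either gene.

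Promoter sequences, from RefSeq tables of build GRCh38.p14, were matched for 27 of the 39 members. The 250 bases before the start of FOS (chr14:75278578-75278827, plus strand) and of FOSB (chr19:45467746-45467995, plus strand) are shown because these are the members past the footprint rule, and capitals mark matches to TATAAA and CCGGAA, the first a core promoter element and the second a core recognised by ETS factors.
FOS: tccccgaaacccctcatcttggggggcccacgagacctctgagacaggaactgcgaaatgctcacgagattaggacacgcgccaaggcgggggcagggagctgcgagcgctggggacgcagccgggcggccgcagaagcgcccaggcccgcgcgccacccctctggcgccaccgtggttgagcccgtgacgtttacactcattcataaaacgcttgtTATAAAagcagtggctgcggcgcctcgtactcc
FOSB: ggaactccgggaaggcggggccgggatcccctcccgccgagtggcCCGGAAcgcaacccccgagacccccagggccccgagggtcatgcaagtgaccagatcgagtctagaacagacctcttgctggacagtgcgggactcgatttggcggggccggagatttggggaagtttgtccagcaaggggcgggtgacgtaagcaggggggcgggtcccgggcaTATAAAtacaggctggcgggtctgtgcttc
Both windows hold TATAAA, at -33 to -28 in FOS and at -30 to -25 in FOSB, counted from the start, and FOSB has a CCGGAA match at -205 to -200. Of the 27 members with a window 22.2% hold TATAAA on either strand, against 7.43% of the 9181 genes with a window that reached 1 FPKM in these cells. Over all 27305 genes with a window the share was 13.0%. Members had up to 3 windows each, and in every motif share a gene counts when any of its windows holds the match. The 27 members were not held to 1 FPKM, unlike the 9181 genes. No CArG box was found in either window, which says only that its letters are absent from these 250 bases.

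The other AP-1 footprints differed less than FOS and FOSB. FOSL1 had the most footprints of the family, with 143 TPM in MT, 111 TPM in WT and 118 TPM in EV. WT, which had the most FOSL1 mRNA, had the fewest FOSL1 footprints. JUN stood at 34.8 TPM in MT, 28.1 TPM in WT and 30.7 TPM in EV. JUNB stood at 28.9 TPM in MT, 22.2 TPM in WT and 29.0 TPM in EV, and JUND at 13.1 TPM in MT, 11.4 TPM in WT and 12.6 TPM in EV. FOSL2 footprints were nearly the same in all libraries, 41.5 TPM in MT, 41.7 TPM in WT and 42.4 TPM in EV. MAFF stood at 2.75 TPM in MT, 1.85 TPM in WT and 1.95 TPM in EV. All 8 genes of the AP-1 group had a footprint difference below 0 in WT over EV, with a median of -0.13 and a range of -1.55 to -0.03, FOS and FOSB among them through EV alone. Over all genes 46.6% were below 0 in that comparison. In MT over EV 4 of the 8 were above 0 and 4 below, FOSB among the latter through EV alone.

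Among the zinc finger and nuclear receptor factors, the KLF genes carried nearly all of the signal. KLF6 stood at 37.1 FPKM in MT, 34.5 FPKM in WT and 35.9 FPKM in EV, and its footprints at 71.4 TPM in MT, 67.5 TPM in WT and 76.1 TPM in EV. KLF10, a gene induced by transforming growth factor beta, stood at 24.6 FPKM in MT, 25.6 FPKM in WT and 23.3 FPKM in EV, with footprints of 23.2 TPM in MT, 19.8 TPM in WT and 20.3 TPM in EV. Neither gene differed between libraries beyond the middle 95% of genes at its level. KLF4, a factor of epithelial differentiation, had mRNA values of 1.83 FPKM in MT, 3.37 FPKM in WT and 3.50 FPKM in EV, with log2 differences of -0.67 in MT over EV and -0.63 in MT over WT. Both were below the middle 95% of genes at 1 to 10 FPKM (-0.59 to 0.50 and -0.59 to 0.59), and neither reached the 2-fold rule. KLF4 footprints, at 0.875 TPM in MT, 0.074 TPM in WT and 0.758 TPM in EV, were under the minimum in each library. KLF2 stood at 1.46 FPKM in MT, 1.85 FPKM in WT and 1.56 FPKM in EV, and its footprints at 3.22 TPM in MT, 2.27 TPM in WT and 1.38 TPM in EV. KLF2 was one of 4 members, among those measured, with more footprints in WT than in EV.

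EGR1, the prototype zinc finger gene of the early response, had little mRNA in these cells, 1.96 FPKM in MT, 1.21 FPKM in WT and 2.02 FPKM in EV. Its footprints stood at 1.73 TPM in MT, 1.24 TPM in WT and 1.33 TPM in EV. EGR2, a relative of EGR1, was at 0.104 FPKM or less and 0.183 TPM or less. Of the orphan nuclear receptor genes, NR4A3 was under 1 unit in all 6 libraries, with 0.026 to 0.117 FPKM and 0.089 to 0.176 TPM. NR4A1 stood at 0.573 FPKM in MT, 0.854 FPKM in WT and 1.41 FPKM in EV, and NR4A2 at 0.386 FPKM in MT, 0.43 FPKM in WT and 1.21 FPKM in EV, and both reached 1 FPKM in EV alone, so each could only come out below EV. The log2 differences were -0.61 in MT over EV and -0.38 in WT over EV for NR4A1, and -0.67 and -0.63 for NR4A2 in the same 2 comparisons, which share the EV library. Footprints of NR4A1 and NR4A2 were listed at 0 in all 3 libraries. Of 744 genes whose highest mRNA value lay between 1 and 2 FPKM, 5.51% were likewise listed at 0 in every footprint library.

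SRF, the factor through which many of these promoters respond, and the proto-oncogene MYC were measured in every library. SRF stood at 9.33 FPKM in MT, 11.7 FPKM in WT and 8.96 FPKM in EV, and its footprints at 2.72 TPM in MT, 1.88 TPM in WT and 1.85 TPM in EV. WT had the most SRF mRNA, a log2 difference of 0.35 over EV, with a footprint difference of 0.01. MYC stood at 27.1 FPKM in MT, 27.6 FPKM in WT and 24.7 FPKM in EV, and its footprints at 74.6 TPM in MT, 57.8 TPM in WT and 67.3 TPM in EV. EGR1 and SRF are 2 of only 3 members with a window that hold a CArG box, EGR2 being the other. Their mRNA differences in WT over EV had opposite signs (-0.45 for EGR1 and 0.35 for SRF). Each lay inside the middle 95% of genes of its level, -0.59 to 0.51 for EGR1 and -0.38 to 0.37 for SRF. Upstream windows of both are shown as examples of CArG boxes (EGR1 at chr5:138465229-138465478 and SRF at chr6:43171019-43171268, both on the plus strand). SRF has 2 windows, and the 1 with more CArG boxes is shown. Capitals mark CArG boxes and, in SRF, also 1 CCGGAA match and 1 GCGGGGGCG match, the second a sequence bound by EGR1.
EGR1: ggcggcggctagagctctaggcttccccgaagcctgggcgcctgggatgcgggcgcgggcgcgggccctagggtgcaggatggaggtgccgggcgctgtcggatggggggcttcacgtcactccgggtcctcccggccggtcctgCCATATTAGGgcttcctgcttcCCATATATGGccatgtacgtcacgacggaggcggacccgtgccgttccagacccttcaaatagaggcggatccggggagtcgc
SRF: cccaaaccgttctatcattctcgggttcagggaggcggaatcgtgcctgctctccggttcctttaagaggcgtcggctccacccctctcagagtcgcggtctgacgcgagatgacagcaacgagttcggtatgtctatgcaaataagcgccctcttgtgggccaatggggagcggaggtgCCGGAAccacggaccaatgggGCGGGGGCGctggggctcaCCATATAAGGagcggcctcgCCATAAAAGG
The boxes lie at -105 to -96 and -83 to -74 in EGR1 and at -30 to -21 and -10 to -1 in SRF. A CArG box on either strand was found in 11.1% of the 27 members with a window and in 1.47% of the 9181 genes with a window that reached 1 FPKM. TGACGTCA, the palindrome bound by CREB and ATF factors, was found in 14.8% of the members and 3.52% of those genes. TGACTCA, the AP-1 site, was in none of the 27 and in 3.86% of those genes. GCGGGGGCG was in 22.2% and 10.3%, CCGGAA in 29.6% and 32.1%, and GGGCGG, the GC box, in 77.8% and 76.5%, where the GC box can overlap a GCGGGGGCG match. Over all 27305 genes with a window, the shares were 1.44% for the CArG box, 2.03% for TGACGTCA and 5.19% for TGACTCA. They were 5.74% for GCGGGGGCG, 17.2% for CCGGAA and 46.2% for the GC box. The 27 members were not held to 1 FPKM, unlike the 9181 genes. All of these shares describe letters in the windows and are not evidence that a factor was bound.

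The IER genes, named for their immediate early response, held the largest footprint difference among well expressed members. IER3, a small stress-inducible protein linked to ERK signalling and cell survival, stood at 38.7 TPM in MT, 20.1 TPM in WT and 38.1 TPM in EV. The MT and EV values lay close together and the WT value was 0.528 times that of EV. Its log2 difference was -0.89 in WT over EV and 0.91 in MT over WT, just short of the 2-fold rule, against 0.02 in MT over EV. The middle 95% of genes at 10 to 100 TPM ran from -0.65 to 0.70 and from -0.65 to 0.67 in the first 2 of these comparisons. IER3 mRNA differed less, at 15.1 FPKM in MT, 14.5 FPKM in WT and 16.6 FPKM in EV. IER2, a nuclear protein, stood at 6.61 TPM in MT, 3.70 TPM in WT and 4.23 TPM in EV, with mRNA of 11.2 FPKM in MT, 12.6 FPKM in WT and 11.6 FPKM in EV. IER5, which acts with the heat shock factor HSF1, stood at 14.4 TPM in MT, 14.1 TPM in WT and 15.7 TPM in EV, with mRNA of 4.48 FPKM in MT, 4.93 FPKM in WT and 4.07 FPKM in EV.

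The feedback inhibitors were mostly low, DUSP1 excepted. DUSP1, a nuclear phosphatase of p38, JNK and ERK, stood at 16.2 FPKM in MT, 14.9 FPKM in WT and 14.9 FPKM in EV, and its footprints at 39.5 TPM in MT, 31.4 TPM in WT and 35.7 TPM in EV. DUSP6, the cytoplasmic phosphatase of ERK, stood at 2.28 FPKM in MT, 1.68 FPKM in WT and 1.48 FPKM in EV, and its footprints at 1.20 TPM in MT, 0.947 TPM in WT and 2.01 TPM in EV. EV therefore had the least DUSP6 mRNA and the most DUSP6 footprints. DUSP5, a nuclear ERK phosphatase, stood at 3.40 FPKM in MT, 2.57 FPKM in WT and 2.72 FPKM in EV, with footprints under 1 TPM in each library. SPRY2, an inhibitor of receptor tyrosine kinase signalling, stood at 3.71 FPKM in MT, 3.04 FPKM in WT and 3.59 FPKM in EV, with footprints of 1.23 TPM in MT, 1.33 TPM in WT and 1.04 TPM in EV. All 4 measured genes of this group had a mRNA difference above 0 in MT over EV and in MT over WT, with medians of 0.18 and 0.26, comparisons that share the MT library. Over all genes 48.7% and 49.0% were above 0 in these comparisons. Each of the 4 genes lay inside the middle 95% of genes of its level in both. DUSP2 was listed at 0 throughout, and DUSP4 and SPRY4 were under 1 unit in every library.

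The decay proteins, the CCN proteins and the remaining effectors completed the set. ZFP36L1 footprints stood at 128 TPM in MT, 121 TPM in WT and 130.1 TPM in EV. ZFP36, also called tristetraprolin, stood at 6.41 FPKM in MT, 6.88 FPKM in WT and 6.66 FPKM in EV, and its footprints at 6.91 TPM in MT, 4.74 TPM in WT and 4.78 TPM in EV. ZFP36L2 stood at 7.13 FPKM in MT, 8.32 FPKM in WT and 6.29 FPKM in EV, with footprints of 3.85 TPM in MT, 4.29 TPM in WT and 3.02 TPM in EV. ZFP36L2 is another of the 4 measured members with more footprints in WT than in EV. CCN1 had 976 TPM of footprints in MT, 786 TPM in WT and 1002 TPM in EV, which made up 53.6%, 52.3% and 55.2% of the footprint sum of the 39 members in these libraries. CCN2, its relative also known as connective tissue growth factor, stood at 56.0 TPM in MT, 46.9 TPM in WT and 63.4 TPM in EV, with mRNA of 9.19 FPKM in MT, 11.5 FPKM in WT and 10.5 FPKM in EV. For both CCN genes WT had the most mRNA and the fewest footprints. The CCN1 mRNA difference of -0.33 in MT over WT was below the middle 95% of genes at 100 FPKM or more (-0.28 to 0.33). MCL1 footprints were even, at 88.7 TPM in MT, 92.5 TPM in WT and 93.0 TPM in EV.

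SGK1 and PHLDA1 were the members whose mRNA and footprints diverged most. SGK1, a kinase induced by serum and glucocorticoids that regulates ion transport, stood at 3.43 FPKM in MT, 4.40 FPKM in WT and 2.49 FPKM in EV. Its footprints stood at 10.4 TPM in MT, 6.21 TPM in WT and 9.47 TPM in EV. WT had the most mRNA and the fewest footprints, with a log2 difference over EV of 0.63 in mRNA and -0.54 in footprints, the first of them above the middle 95% of genes at 1 to 10 FPKM (-0.59 to 0.51). PHLDA1, a growth factor-induced pleckstrin homology-like protein, stood at 3.70 FPKM in MT, 5.77 FPKM in WT and 4.97 FPKM in EV. Its footprints stood at 2.98 TPM in MT, 1.66 TPM in WT and 3.36 TPM in EV, so that WT again had the highest mRNA and the lowest footprint value.

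**Figure D2:**
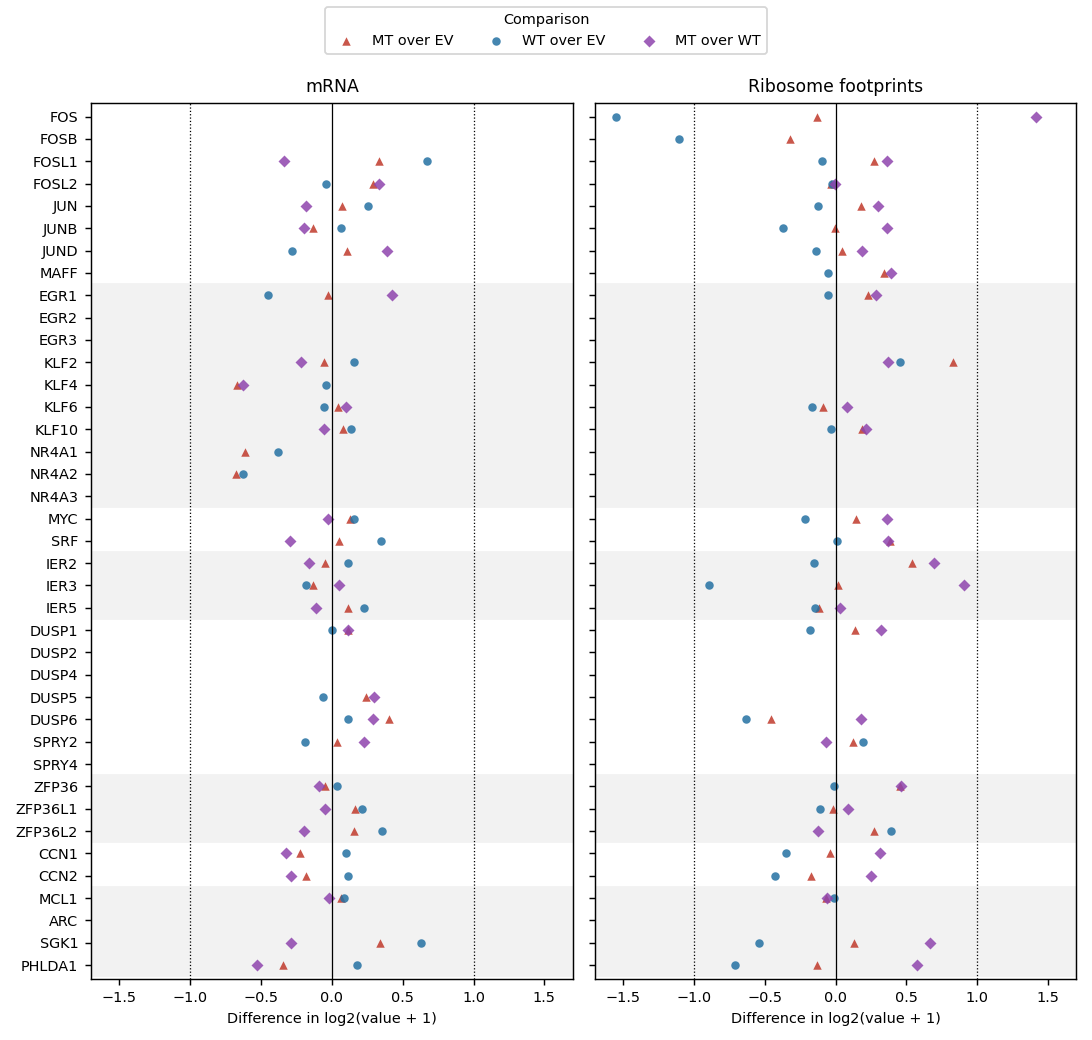
Difference in log2(value + 1) of each member at 1 unit or more, for mRNA (left) and footprints (right), in MT over EV (triangle), WT over EV (circle) and MT over WT (diamond), with dotted lines at the 2-fold rule. No mRNA point reaches a dotted line, and in footprints FOS (-1.55 in WT over EV and 1.42 in MT over WT) and FOSB (-1.10 in WT over EV) do.

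Over the whole set, mRNA differed little between libraries. No member passed the 2-fold rule in MT over EV, WT over EV or MT over WT, in which it called 0.29%, 0.499% and 0.508% of all genes. The 29 members measured in MT over EV had a median log2 difference of 0.05, with 17 above 0. In WT over EV the median was 0.10 and 18 of 29 were above 0, and in MT over WT it was -0.09 and 9 of 27 were above 0. NR4A1 and NR4A2 were measured through EV alone in MT over EV and WT over EV, so they could only be below 0 there. Over all genes the medians were -0.01, -0.01 and 0.00. The sum of all 39 members was 596 FPKM in MT, 637 FPKM in WT and 576 FPKM in EV, and WT had the highest mRNA value for 17 of the 29 measured members, or 58.6%, against 35.5% of all genes. For NR4A1 and NR4A2, among the 29 through EV alone, the highest value could only be in EV.

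Footprints of the set were lowest in the WT library. Of the 28 members at 1 TPM or more in at least 1 library, 22 had their lowest value in WT, or 78.6%, against 33.6% of all genes. In WT over EV, DUSP6 as well as FOS and FOSB was measured through EV alone. Among the 16 members at 10 TPM or more the count was 14, against 33.3% of all genes at that level, and the exceptions were FOSL2 and MCL1, with the lowest value in MT. SGK1, counted among the 14, reached 10 TPM in MT alone, so it could not be lowest in MT. The median log2 difference was -0.14 in WT over EV, where 24 of 28 members were below 0, against a median of 0.03 and 46.6% below 0 over all genes. In MT over WT the median was 0.31, with 23 of 27 above 0, against -0.01 and 48.4% over all genes. FOS and DUSP6 were measured there through MT alone and could only count as above 0. These 2 comparisons share the WT library, so the 2 medians are not independent of each other. In MT over EV, which does not use WT, the median was 0.09 and 16 of 28 were above 0, against 0.01 and 52.1% over all genes. FOSB was measured there through EV alone and could only count as below 0. Without CCN1, the footprint sum of the other members was 846 TPM in MT, 716 TPM in WT and 814 TPM in EV. The WT footprint library is also the one with the coarsest values, and the part of depth in these differences was not tested.

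**Figure D3:**
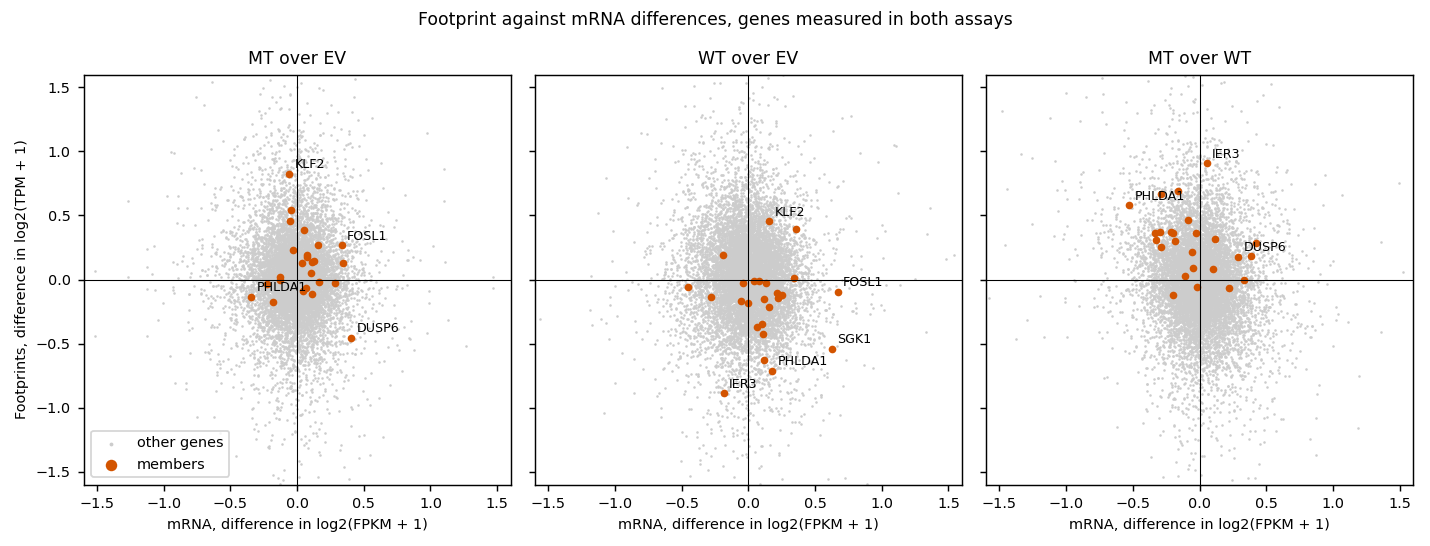
Footprint difference in log2(TPM + 1) against mRNA difference in log2(FPKM + 1) for genes measured in both assays, with the 25 members in orange and other genes in grey, in 1 panel per comparison (genes beyond the axis limits are not drawn). In WT over EV 15 of the 25 members lie to the lower right of the origin, with mRNA above 0 and footprints below 0, and FOSL1, SGK1 and PHLDA1 are among them. DUSP6 is another, with footprints measured there through EV alone that could only be below 0.

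Translational efficiency was taken as the footprint difference minus the mRNA difference, for the 25 members measured in both assays. In WT over EV 15 of the 25, or 60.0%, had mRNA above 0 with footprints below 0, against 23.5% of 10335 genes measured in both. The opposite pairing was seen in 1 member, SPRY2. The median efficiency difference was -0.32, with 19 of 25 below 0, against 0.04 and 46.3% below 0 over all genes. DUSP6 is counted in the 15 and in the 19. Its footprints were measured through EV alone, so they could only be below 0. SGK1, at -1.17, was the member past the 2-fold rule, which called 4.21% of all genes here. FOSL1 followed among members at 10 units or more with -0.77, and IER3 with -0.71, both below the middle 95% of genes at that level (-0.68 to 0.70). FOSL2 (0.02) and JUND (0.14) were at the other end of the set at that level. PHLDA1 stood at -0.89.

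In MT over WT the median efficiency difference of the 25 members was 0.39, with 18 above 0, against -0.01 and 49.2% above 0 over all genes. This comparison shares both WT libraries with WT over EV, so its median is not independent of the one given there. PHLDA1 passed the rule with 1.11, where the rule called 4.82% of all genes. IER3 had 0.86, above the middle 95% of genes at its level (-0.69 to 0.72), and FOSL1 had 0.70. FOSL2 (-0.34) and JUND (-0.20) were lowest among members at 10 units or more. In MT over EV no member passed the rule, which called 3.51% of all genes, and the median was 0.09 with 16 of 25 above 0. There CCN1 (0.19) and IER3 (0.15) were highest and FOSL2 (-0.32) and ZFP36L1 (-0.18) lowest among members at 10 units or more. These efficiencies pair RNA-seq and Ribo-seq libraries by label, and whether both came from the same dishes is not stated in the sources used here. Cycloheximide is given for the Ribo-seq libraries alone, and its part in footprint-to-mRNA values was not tested.

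A lower bar of 1.5-fold took in more members and more of the background. In mRNA it took in KLF4, NR4A1 and NR4A2, all lower in MT than in EV, where 2.31% of genes passed it, and FOSL1 and SGK1 (higher) and NR4A2 (lower) in WT over EV, where 2.63% did. NR4A1 and NR4A2 were measured through EV alone. In MT over WT it took in KLF4, lower in MT, with 3.23% of genes. In footprints it took in KLF2, higher in MT than in EV (10.8% of genes). In WT over EV it took in 5 of 28 members, FOS, FOSB, IER3, PHLDA1 and DUSP6, all lower in WT (12.1% of genes), FOS, FOSB and DUSP6 through EV alone. In MT over WT it took in 4 of 27, FOS, IER3, IER2 and SGK1, all higher in MT (12.5% of genes), FOS through MT alone. For translational efficiency it took in 3 of 25 members in MT over EV, 5 of 25 in WT over EV and 8 of 25 in MT over WT, against 13.7%, 16.9% and 17.7% of genes. The 5 in WT over EV, all of them lower, were SGK1, PHLDA1, FOSL1, DUSP6 (its footprints through EV alone) and IER3. The 8 in MT over WT, all of them higher, were PHLDA1, SGK1, IER3, IER2, FOSL1, SRF, CCN1 and KLF2.

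The ratio of footprints to mRNA varied far more between members than between libraries. Of the 27 members at 1 FPKM or more in EV with footprints above 0, the median was 1.36 TPM per FPKM, against 1.01 over 10777 genes. CCN1 had the highest ratio, 10.6 TPM per FPKM in MT, 6.79 in WT and 9.27 in EV, followed by CCN2 with 6.10 in MT, 4.09 in WT and 6.02 in EV. Both lay above 5.26 in EV, the ratio that 95% of all genes did not exceed. The 2 secreted proteins thus had the most footprints per mRNA of these 27 members. IER5 (3.22 in MT, 2.86 in WT and 3.87 in EV) and MYC (2.75 in MT, 2.09 in WT and 2.72 in EV) were also in the upper part. At the low end were SRF (0.292 in MT, 0.161 in WT and 0.207 in EV), DUSP5 (0.199 in MT, 0.213 in WT and 0.289 in EV) and KLF4 (0.478 in MT, 0.022 in WT and 0.217 in EV). Footprints of DUSP5 and KLF4 were under 1 TPM in each library, so their ratios rest on few reads. The 25% of all genes with the lowest ratios in EV were under 0.499. FOSL1 and FOSL2, the 2 FOS relatives with abundant mRNA, differed from each other, with 2.40 and 0.898 TPM per FPKM in MT, 1.47 and 1.14 in WT, and 2.52 and 1.13 in EV. WT had the lowest ratio of the 3 libraries for 17 of 27 members, or 63.0%, against 33.4% of 10497 genes. Among the 13 members at 10 units or more in all 6 libraries the count was 9, or 69.2%, against 35.1% of 4722 genes. These counts draw on the same values as the efficiency differences and are not independent of them. FPKM and TPM are on different scales, so a ratio is read only against those of other genes.

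**Figure D4:**
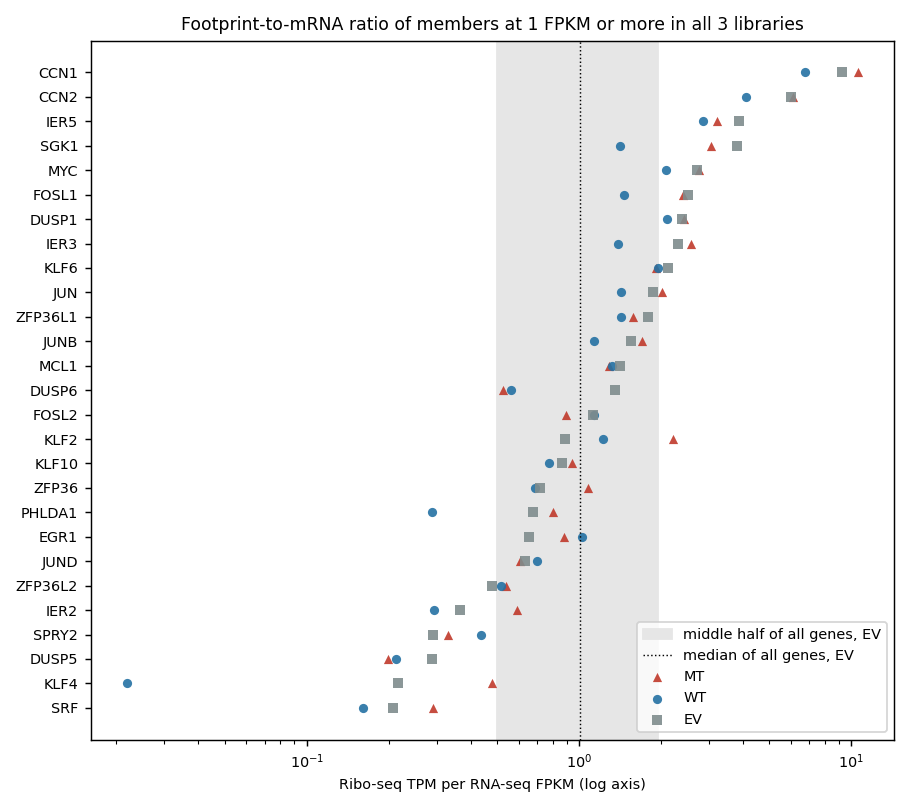
Ribo-seq TPM per RNA-seq FPKM (log axis) of the 27 members at 1 FPKM or more in all 3 libraries with footprints above 0, sorted by the EV ratio, with MT (triangle), WT (circle) and EV (square). The grey band holds the middle 50% of all genes in EV (0.499 to 1.95) and the dotted line is their median (1.01). CCN1 and CCN2 lie far to the right and SRF, KLF4 and DUSP5 to the left, KLF4 and DUSP5 with footprints under 1 TPM in each library.

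The signalling genes around the set were compared through 7 lists with 84 genes. None of the 78 that were measured passed the 2-fold rule in mRNA in any of the 3 comparisons. The RAS, RAF, MEK and ERK cascade had medians of 0.04 in MT over EV, -0.05 in WT over EV and 0.02 in MT over WT in mRNA, and 0.02, -0.03 and 0.03 in footprints, with none of its 18 genes past the rule. No gene of the JNK and p38 cascade passed it either. In footprints 3 of 76 passed the rule in MT over EV, 2 of 77 in WT over EV and 2 of 77 in MT over WT, shares of 3.95%, 2.60% and 2.60%, near the 2.83%, 3.36% and 3.19% of all genes. The genes are named as a description. MRTFA, an actin-regulated coactivator of SRF, was higher in MT than in EV, with 27.0 TPM in MT, 18.3 TPM in WT and 10.5 TPM in EV and mRNA of 7.13 FPKM in MT, 8.46 FPKM in WT and 7.04 FPKM in EV. ETV1, an ETS factor, was lower in both MT and WT than in EV, with 3.78 TPM in MT, 1.69 TPM in WT and 9.16 TPM in EV. ETV4, a relative of ETV1, was the other gene past the rule in MT over EV and passed it in MT over WT too, with 1.71 TPM in MT, 0 in WT and 0.06 TPM in EV. It entered both comparisons through MT alone and could only be called higher there. The phosphatase gene DUSP16 passed it in WT over EV and MT over WT, with 3.64 TPM in MT, 30.3 TPM in WT and 3.98 TPM in EV, and mRNA of 8.69 FPKM in MT, 5.05 FPKM in WT and 6.06 FPKM in EV.

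A list set around the ZFP36 proteins held CNOT, DCP and XRN1 decay genes and the RNA-binding protein genes ELAVL1, HNRNPD and KHSRP. Its footprint median was 0.35 in WT over EV. Of its genes 9 of 12 were above 0, against 53.4% of all genes, and none passed the rule. A mixed list of YAP and TEAD factors, their targets AMOTL2 and ANKRD1 and the YAP inhibitor LATS2 had a median of -0.26 in that comparison. In this list 6 of 8 were below 0, against 46.6% of all genes, and none passed the rule. Its factors lay on both sides of 0, with YAP1 at 0.08, WWTR1 at -0.01, TEAD1 at 0.59, TEAD3 at -0.88 and TEAD4 at -0.46, against AMOTL2 at -0.60, ANKRD1 at -0.43 and LATS2 at -0.08. In translational efficiency the genes past the rule in MT over EV were MRTFA (1.27), the JNK- and p38-regulated factor gene ATF2 (1.02) and the EGFR inhibitor gene ERRFI1 (1.04). In WT over EV they were ATF2 (1.18), DUSP16 (2.87) and ETV1 (-1.44). In MT over WT they were ETV5 (1.61), ERRFI1 (1.24), ANKRD1 (1.23), DUSP10, which just reached it, and DUSP16 (-3.43). In the order given, these were 4.05% of 74, 3.95% of 76 and 6.58% of 76 measured genes of the lists. The rule called 3.51%, 4.21% and 4.82% of all genes there, so the genes are named as a description. ERRFI1 mRNA stood at 69.2 FPKM in MT, 116 FPKM in WT and 116 FPKM in EV, with footprints of 64.7 TPM in MT, 45.2 TPM in WT and 52.1 TPM in EV.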

How the data were processed

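RNA-seq and Ribo-seq libraries of 7860 cells, 1 per label (MT, WT, EV) and assay, were compared from 1 deposited table of 20307 rows. TRIzol was used for RNA, RNase I for footprints after cycloheximide, and NEBNext kits for libraries, per the labels' protocols. The design text names 3 dishes per condition, and whether they were pooled is not given. The submitters' processing notes name human genome build 18. The sources used here do not give the aligner, counter or annotation. The deposited RNA-seq columns name no unit and were read as FPKM, because they hold decimals and sum to 459938 to 469859. The deposited Ribo-seq columns were read as TPM, because each sums to 1000000. Read totals are unknown, so no interval or detection floor is given.

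Rows without a gene name (605, at most 0.564% of a column) and 7 symbols with conflicting rows were left out. Differences in log2(value + 1) were computed over all genes in Python 3.11.15 with pandas 2.3.3 and tested on simulated data. Members with values in every library are those past the 2-fold rule, the 5 most abundant per assay and, per comparison, the 2 highest and 2 lowest at 10 units or more, and others were added by role. Members and lists were chosen with earlier results of these data known. Alternatives were a pseudocount of 0.1, a minimum of 10 units or none, centring, a 1.5-fold rule and, added after the data were seen, 1 total for the RNA-seq columns.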

Additional observations from a re-analysis of the deposited data

How the results depend on the processing

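The number of members past the rule was small and moved with the settings. With a pseudocount of 0.1 it was 2 in mRNA in MT over EV and 1 in WT over EV (0 in both as reported). These were NR4A1 and NR4A2 in MT over EV and NR4A2 in WT over EV. Both genes were measured through EV alone and could only be called lower. In footprints the count was 1 in MT over EV and 3 in WT over EV (0 and 2 as reported). The 3 were FOS, FOSB and DUSP6, likewise through EV alone. In translational efficiency the count was 2 in MT over EV, 3 in WT over EV and 2 in MT over WT (0, 1 and 1 as reported). DUSP6, its footprints through EV alone, was among the 3 in WT over EV. With a minimum of 10 units it was 0 in footprints in WT over EV and MT over WT (2 and 1 as reported) and 0 in translational efficiency in the same comparisons. With no minimum it was 3 in translational efficiency in WT over EV and 3 in MT over WT. Shares of all genes under the other pseudocount and minimums are not given here. The counts under those settings therefore cannot be set against the background. With a 1.5-fold rule, for MT over EV, WT over EV and MT over WT in that order, it was 3, 3 and 1 in mRNA, 1, 5 and 4 in footprints, and 3, 5 and 8 in translational efficiency. Centring and scaling the RNA-seq columns to 1 total left each count as reported. The median of the members in footprints was between -0.17 and -0.14 in WT over EV and between 0.28 and 0.33 in MT over WT under the settings tried. Single differences were recomputed for the 16 members that the naming rule picked, of which 3 differences moved by more than the spread of genes of their level, all with a pseudocount of 0.1, and no called difference among them changed sign. No paired analysis was possible because each label has 1 library per assay, and for the same reason no library could be left out.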
